A study of Mus musculus with 6 samples.

Results

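The genes described here are 34 nuclear genes for subunits of the oxidative phosphorylation system, out of 18194 genes that the array measures with a probe set of their own. They are a list of named genes, and a gene was counted as found where the array annotation gives a probe set only that symbol or an alias with the same Entrez identifier. All 34 were found. They comprise 15 genes of complex I, 4 of complex II, 5 of complex III, cytochrome c, 6 genes of complex IV and 3 of complex V. The 34 genes had 70 probe sets, and for each gene the probe set with the highest mean over the arrays was used.

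RNA came from pancreatic tumour cells of C57BL/6 mice aged 11 weeks, and the 6 samples shared engineered tumour alleles, among them p53f/f and ptf1a-Cre. In 3 samples the Msi1 genotype was wt, and in the other 3 it was Msi1 -/-, called Msi1-null below. The wt samples are therefore tumours too, wild type at Msi1 alone, and the Cre is driven by Ptf1a, a transcription factor of pancreatic progenitors and acinar cells. Msi1 encodes Musashi 1, an RNA-binding protein, and the comparison asks which transcripts differ when it is missing. Whether every sample came from its own animal is not clear from the labels, so the spread behind each p-value is that among these samples and may be technical.

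Oxidative phosphorylation takes place in the inner mitochondrial membrane. Complexes I and II pass electrons from NADH and succinate to ubiquinone, complex III passes them on to cytochrome c, and complex IV passes them from there to oxygen. Complexes I, III and IV pump protons, and complex V, the ATP synthase, uses the resulting gradient to make ATP. Most subunits are encoded in the nucleus and imported, while a small core is encoded by mitochondrial DNA. Nuclear genes of the system are known for promoters with sites for NRF1, for ETS factors such as GABPA, and for YY1, which makes the promoter sequence of interest beside the transcript levels.

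A RefSeq promoter table of the build GRCm38.p6, with 250 bases before and 50 bases after each start, held 24 of the 34 genes. 4 of these windows are shown as examples of the motifs among genes described below, each read 5′ to 3′ on the strand of the gene. Capitals mark matches, on either strand, to the NRF1 motif GCGCANGC, the ETS motif CCGGAAG or the CCAAT box. The Cycs window lies at chr6:50566520-50566819 (minus strand), that of Cox8a at chr19:7217567-7217866 (minus strand), that of Atp5b at chr10:128083057-128083356 (plus strand) and that of Ndufs3 at chr2:90904672-90904971 (minus strand).
Cycs: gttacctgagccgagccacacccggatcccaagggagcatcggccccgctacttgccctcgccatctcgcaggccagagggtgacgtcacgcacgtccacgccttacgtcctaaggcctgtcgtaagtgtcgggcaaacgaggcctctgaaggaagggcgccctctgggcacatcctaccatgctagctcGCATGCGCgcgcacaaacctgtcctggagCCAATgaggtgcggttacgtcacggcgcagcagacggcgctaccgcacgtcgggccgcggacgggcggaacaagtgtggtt
Cox8a: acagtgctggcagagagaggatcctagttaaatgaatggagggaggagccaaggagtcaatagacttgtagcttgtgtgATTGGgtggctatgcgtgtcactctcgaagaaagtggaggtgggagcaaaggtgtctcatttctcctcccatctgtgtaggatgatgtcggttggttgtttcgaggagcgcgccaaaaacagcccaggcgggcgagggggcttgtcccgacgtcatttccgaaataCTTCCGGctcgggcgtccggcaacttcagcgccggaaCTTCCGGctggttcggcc
Atp5b: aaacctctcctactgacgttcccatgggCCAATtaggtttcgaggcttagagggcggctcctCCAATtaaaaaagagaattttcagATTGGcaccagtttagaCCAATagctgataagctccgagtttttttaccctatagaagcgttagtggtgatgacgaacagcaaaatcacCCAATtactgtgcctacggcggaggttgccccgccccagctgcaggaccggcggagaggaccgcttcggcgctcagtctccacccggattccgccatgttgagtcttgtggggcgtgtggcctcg
Ndufs3: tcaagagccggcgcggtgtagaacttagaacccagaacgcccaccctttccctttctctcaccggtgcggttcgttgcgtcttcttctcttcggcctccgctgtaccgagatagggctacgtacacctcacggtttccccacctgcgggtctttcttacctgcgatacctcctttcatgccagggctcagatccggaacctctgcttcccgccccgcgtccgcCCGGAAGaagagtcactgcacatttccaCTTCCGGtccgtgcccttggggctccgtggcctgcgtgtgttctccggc

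The Cycs window holds an NRF1 match from -60 to -53 relative to the start and a CCAAT box from -31 to -27. In Cox8a an ETS match spans the start, from -5 to 2, and a second lies at 33 to 39. Ndufs3 has ETS matches on opposite strands, from -27 to -21 and from 2 to 8. Atp5b has no NRF1 or ETS match in its window but has 5 CCAAT boxes, 4 on the plus and 1 on the minus strand, from -222 to -71. Over the 24 promoters the NRF1 motif was present in 8 (33.3%; Atp5o, Cycs, Ndufa5, Ndufa8, Sdha, Sdhb, Sdhd and Uqcrc1) against 10.1% of all 27025 promoters of the table. The ETS motif was present in 4 (16.7%) against 9.12%, and the YY1 motif AAGATGGC in 3 (12.5%; Ndufa9, Ndufb8 and Ndufs7) against 2.88%. The motif AAGGTCA of estrogen-related receptors was found in 1 (4.17%) against 4.66%, the CCAAT box in 6 of the 24 against 37.9%, and the TATA box TATAAA in 1 (4.17%) against 14.2%. The promoters of these genes were also richer in G and C, with a median GC content of 60.3% against 52.7%, and its part in these shares was not tested. These are letter matches within a short window and show neither binding nor its absence.

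With 1 array per sample, precision is limited by the number of arrays. The median intensity of the arrays ran from 159.2 to 164.3. Array background was set per array by 81 probe sets for olfactory, vomeronasal and trace amine receptors (their 95th percentile). It was 191.4 in Msi1-null replicate 1 and between 162.9 and 166.6 in the other arrays, so calls above background are stricter in that array. The probe sets of the 34 genes read between 736 and 7972. All 34 were above background in all arrays. The 3 Msi1 probe sets were dim and overlapped between the genotypes: 1452287_at, the one with the highest mean, read 144, 150 and 257 in wt and 141, 168 and 127 in Msi1-null arrays (log2 difference -0.29 ± 0.22, SE). At 1452287_at only wt replicate 3 and Msi1-null replicate 2 read above the background of their array. The other Msi1 probe sets were below background in every array. The position of these probes with respect to the deletion is also unknown, so the genotype labels could not be checked with them. All 10 ductal or tumour epithelial markers measured were above background in every array, with 5 higher and 5 lower in Msi1-null arrays. Ductal or tumour epithelium was therefore present, but the list does not tell tumour cells from normal ducts. Other cell types were present as well. Acinar markers were lower in Msi1-null arrays in 16 of 16 genes, with summed intensities of 49087 to 83281 in wt and 15916 to 49780 in Msi1-null arrays.

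Most oxidative phosphorylation genes had a slightly higher mean in tumours without Msi1 than in wt tumours, and no gene passed the test. Differences are given throughout as Msi1-null minus wt on the log2(intensity + 1) scale, on which 1 is a doubling. Of the 34 genes, 27 had a higher mean in the Msi1-null arrays (79.4%) and 7 a lower mean, namely Ndufa2, Ndufb8, Ndufs3, Ndufv1, Uqcrc1, Cox4i1 and Cox7a2. Over all 45037 probe sets 51.4% had a higher mean, and over the 8958 bright ones, with a mean log2 of at least 9, a floor chosen to lie below the dimmest of the 34 genes, 47.7% did. The median difference of the 34 genes was 0.060, or 4.22% more, against a median of -0.01 for bright probe sets, whose 5th and 95th percentiles were -0.28 and 0.24. Differences ranged from -0.09 for Ndufs3 and Cox4i1 to 0.31 for Cycs, and 23 of the 34 lay between -0.1 and 0.1.

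**Figure D1:**
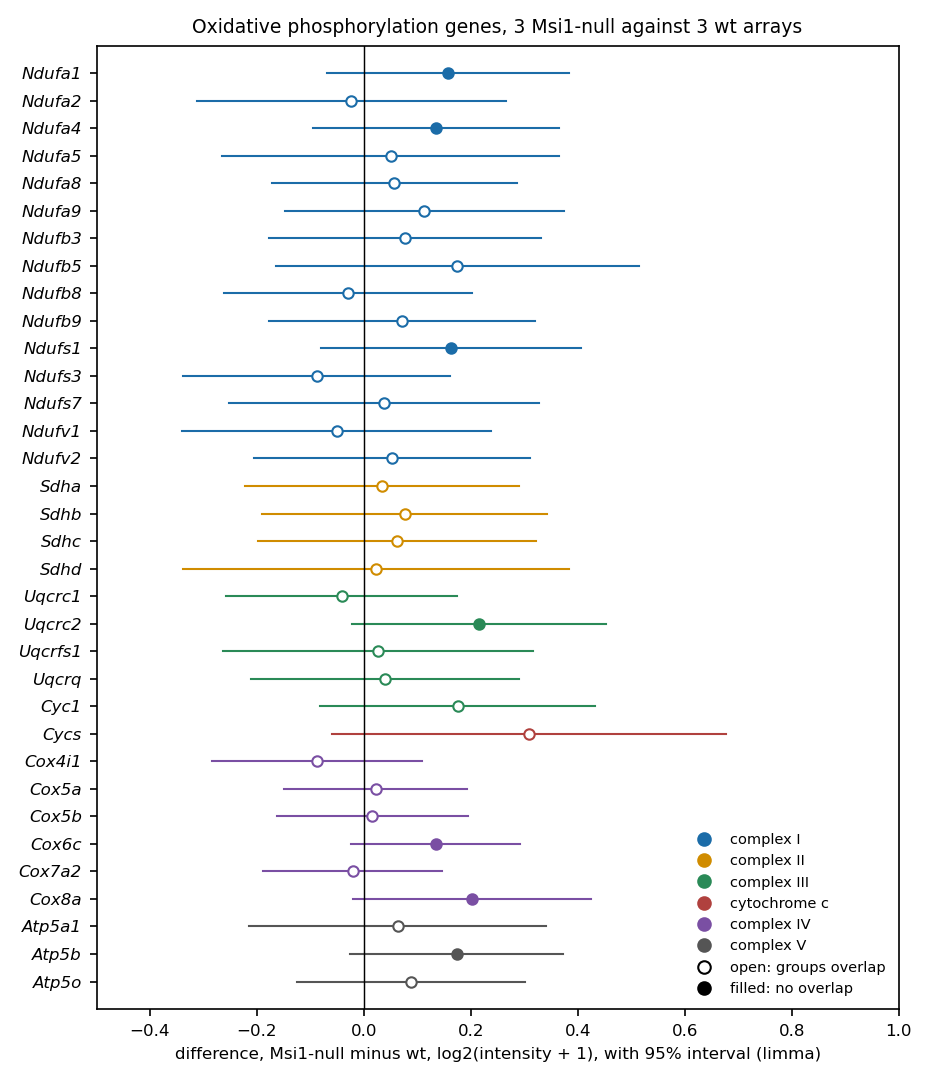
Log2 difference of each of the 34 genes, Msi1-null minus wt, with its 95% interval from limma (n = 3 arrays a group); colours mark complexes, and filled points mark genes whose groups do not overlap. Points to the right of 0 number 27 of 34, Cycs stands at 0.31, and all 34 intervals include 0.

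By limma's moderated test with Benjamini-Hochberg adjustment, 0 of 45037 probe sets (0%) had an adjusted p under 0.05, and the smallest adjusted p was 0.9997. An unadjusted p under 0.05 was found for 1355 probe sets (3.01%) and for 0 of the 34 genes, of which 5 lay under 0.1 against 6.77% of all probe sets: Uqcrc2, Cox8a, Atp5b, Cox6c and Cycs. The data set bounds on the size of the differences. The 95% intervals lay within 1 log2 unit of 0 for all 34 genes and within 0.5 for 32, Ndufb5 (up to 0.51) and Cycs (up to 0.68) being the exceptions, so a doubling or halving of any of these transcripts lies outside its interval.

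The groups did not overlap for 7 genes, all higher in Msi1-null arrays: Ndufa1, Ndufa4, Ndufs1, Uqcrc2, Cox6c, Cox8a and Atp5b. That is 20.6% of the 34 against 4.08% of all probe sets and 3.96% of bright ones. None of the 34 was lower without overlap, against 3.71% of all and 5.0% of bright probe sets. After quantile normalization, median centring or cyclic loess of the arrays 6, 8 and 6 of the 34 genes were higher without overlap. The share of all probe sets was not counted after these normalizations, so these counts have no comparison. Of the 7 genes, Ndufs1, Uqcrc2, Cox6c and Cox8a were among them each time. Atp5b was among them with the first and second, Ndufa4 with median centring alone and Ndufa1 with none. Genes that overlapped in the deposited values made up the rest: Ndufa9 with every normalization, and Cyc1 with median centring and cyclic loess. Genes of a pathway vary together within a sample and are not replicates, so these shares carry no test.

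The differences were not spread evenly over the arrays. Msi1-null replicate 2 had the highest value for 18 of the 34 genes. A score, the mean over genes of the log2 value minus that gene's mean in the 6 arrays, was -0.02, -0.05 and -0.04 in wt replicates 1 to 3 and 0.001, 0.10 and 0.004 in Msi1-null replicates 1 to 3. All Msi1-null scores thus lay above all wt scores, with replicates 1 and 3 close to wt replicate 1. Without Msi1-null replicate 2 the median difference was 0.026 and 21 of 34 genes were higher. Leaving out wt replicate 1 or Msi1-null replicate 3 gave medians of 0.096 and 0.098. Over the 6 fits that each left out an array, 15 genes kept a positive and 4 a negative difference, and 15 took both signs. The SD of log2 values was larger in Msi1-null than in wt arrays for 23 of the 34 genes (67.6%), against 64.5% of bright probe sets.

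**Figure D2:**
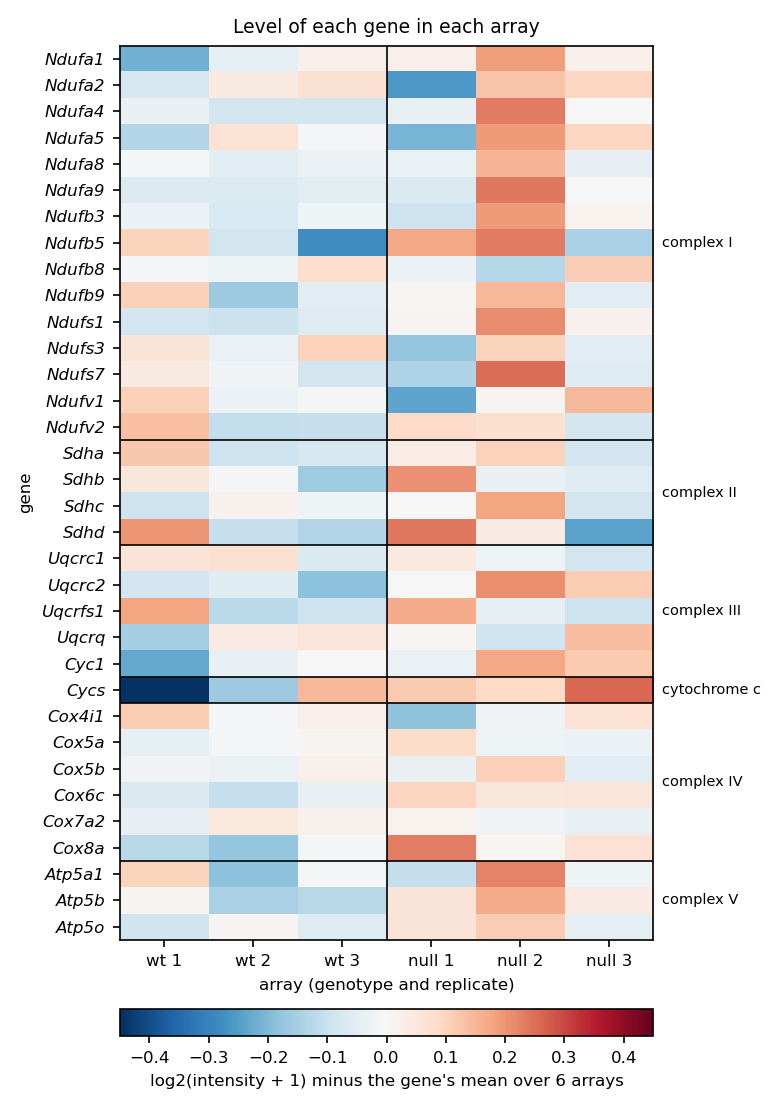
Log2(intensity + 1) of each gene in each array minus that gene's mean over the 6 arrays, in log2 units, with wt arrays on the left, Msi1-null arrays on the right and genes grouped by complex. Msi1-null replicate 2 is the reddest column within complex I, where it is highest for 11 of 15 genes, and wt replicate 1 is lowest for Cycs.

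Several measures of the samples moved with the genotype. Markers of G2 and M phase were higher in Msi1-null arrays in 22 of 22 genes, with sums of 5033 to 8525 in wt and 8744 to 12586 in Msi1-null arrays. Of these genes 20 had an unadjusted limma p under 0.05, against 3.01% of all probe sets, and 0 passed after adjustment. Only 16 of the 22 were above background in every array. Markers of T and NK cells were higher in 12 of 12 genes, with sums of 1698 to 2057 and 2089 to 2698, although only 2 of the 12 were above background in every array. Endothelial markers were higher in 7 of 9 genes (median 0.27), B and plasma cell markers in 8 of 9 (median 0.34), and adipocyte markers lower in 7 of 8 (median -0.22), with sums that overlapped between the groups. All 9 endothelial markers were above background in every array, but only 3 of the 9 B and plasma cell markers and 3 of the 8 adipocyte markers were. Macrophage markers were higher in 6 and lower in 6 of 12 genes (median -0.02). Among them Chil3 (-3.13 ± 0.64, SE) and Arg1 (-0.80 ± 0.23, SE) were lower without overlap, against 3.71% of all probe sets. Msi1-null replicate 2, highest for the respiratory genes, had marker scores of -0.98 for acinar cells, -0.69 for macrophages and -0.36 for fibroblasts. Its scores were 0.77 for B and plasma cells, 0.71 for islet cells, 0.33 for T and NK cells and 0.39 for G2 and M phase. Msi1-null replicate 1 was lower for acinar cells, at -1.59, and Msi1-null replicate 3 was higher for G2 and M phase, at 0.49. In the 5 arrays other than Msi1-null replicate 2 the macrophage score lay between -0.02 and 0.26. There the B and plasma cell score lay between -0.53 and 0.09 and the islet score between -0.64 and 0.36. Ratios of 3′ to 5′ control probe sets, a measure of RNA integrity, overlapped between the groups. They were 1.55, 1.86 and 1.67 in wt and 1.38, 1.60 and 1.61 in Msi1-null arrays for Gapdh, and 1.62, 1.71 and 1.64 against 1.44, 1.58 and 1.66 for Actb. The part of these measures in the differences was not tested. In bulk tissue fewer cells of a type and less RNA per cell cannot be told apart.

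Complex I, the NADH dehydrogenase, was represented by 15 of its genes. Of these 11 were higher and 4 lower in Msi1-null arrays, with a median difference of 0.06. Ndufs1 encodes the largest subunit, which carries iron-sulphur clusters in the electron-input arm. Its probe set 1425143_a_at read 742, 736 and 756 in wt replicates 1 to 3 and 794, 914 and 799 in Msi1-null replicates 1 to 3. The wt arrays lay close together, all Msi1-null arrays lay above them, and replicate 2 stood well above the other two. The difference was 0.16 ± 0.10 (SE), an increase of 12.0% in the fitted mean, with an exact two-sided permutation p of 0.1, the smallest that 3 against 3 arrays allow. Groups that do not overlap always give this p, here and below, so it adds nothing to the absence of overlap. Without Msi1-null replicate 2 it was 0.10.

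Ndufa1 encodes a small accessory subunit needed for assembly of the complex. It read 3868, 4361 and 4556 in wt and 4561, 5115 and 4565 in Msi1-null arrays at 1422241_a_at. The groups did not overlap, but only by 5.29 intensity units, and wt replicate 1 was the low array. The difference of 0.16 ± 0.10 (SE) became 0.09 without wt replicate 1. Ndufa4 was first assigned to complex I and is now regarded as a subunit of complex IV. At 1424085_at it read 3596, 3477 and 3474 in wt and 3603, 4332 and 3680 in Msi1-null arrays. Here the gap between the groups was 6.62 units and Msi1-null replicate 2 alone was clearly high. The difference was 0.13 ± 0.10 (SE), and 0.05 without that array. With Ndufa4 moved to complex IV, 10 of 14 complex I genes and 5 of 7 complex IV genes were higher, with medians of 0.05 and 0.02.

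The largest difference within complex I belonged to Ndufb5, an accessory subunit of the membrane arm. Its probe set 1448589_at read 2550, 2248 and 1961 in wt and 2685, 2799 and 2152 in Msi1-null arrays. Both groups were wide and they overlapped, since Msi1-null replicate 3 lay below wt replicates 1 and 2. The difference was 0.17 ± 0.14 (SE; exact two-sided permutation p = 0.3), with an interval from -0.16 to 0.51. The other probe set, 1417102_a_at, gave 0.10 ± 0.11 (SE).

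Ndufs3, a core subunit of the peripheral arm, had the most negative difference of the 34 genes. It read 2490, 2341 and 2567 in wt and 2111, 2560 and 2305 in Msi1-null arrays at 1423737_at. Msi1-null replicate 1 was the lowest array and Msi1-null replicate 2 was nearly level with the highest, wt replicate 3. The difference was -0.09 ± 0.11 (SE), with an interval from -0.34 to 0.16, and it stayed negative whichever array was left out. The remaining 10 complex I genes overlapped between the groups and ran from -0.05 (Ndufv1, the flavin-binding subunit that takes up electrons from NADH) to 0.11 (Ndufa9).

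Within complex I the Msi1-null arrays differed among themselves. Its score was -0.01, -0.05 and -0.03 in wt and -0.07, 0.15 and 0.01 in Msi1-null arrays. Replicate 2 was highest for 11 of the 15 genes and replicate 1 lowest for 7 of them, so the groups overlapped. The median difference was 0.014 without Msi1-null replicate 2 and 0.12 without Msi1-null replicate 1.

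**Figure D3:**
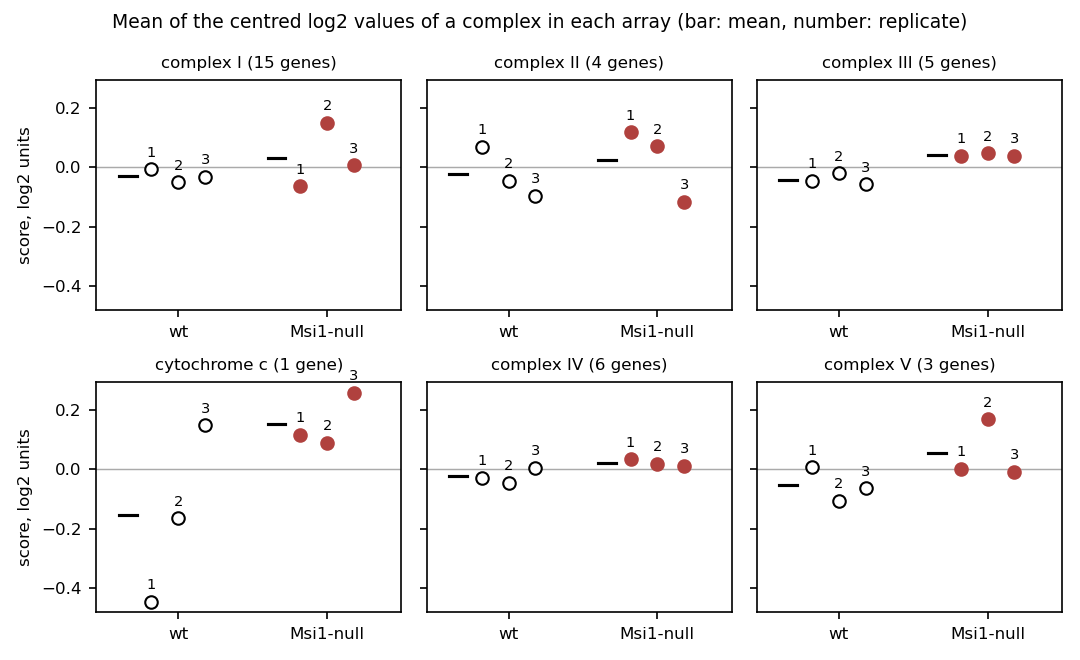
Score of each complex in each array (mean over its genes of the log2 value minus that gene's mean over the 6 arrays, in log2 units), open for wt and filled for Msi1-null, with replicate numbers and a bar at the mean of 3 arrays. The groups separate for complexes III and IV, and overlap for the others, and for cytochrome c wt replicate 1 lies at -0.45.

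Complex II, the succinate dehydrogenase, is the only complex of the chain with no mitochondrially encoded subunit. All 4 of its genes had a higher mean in Msi1-null arrays and all 4 overlapped, with a median difference of 0.05. Sdhb, the iron-sulphur subunit, read 2525, 2432 and 2186 in wt and 2814, 2383 and 2345 in Msi1-null arrays at 1418005_at. Only Msi1-null replicate 1 was above all wt arrays. The difference was 0.08 ± 0.11 (SE), and it turned to -0.01 without that array. Sdhd, a membrane anchor, read 2543, 2061 and 2020 in wt and 2610, 2270 and 1871 in Msi1-null arrays at 1428235_at. Each group had a high replicate 1, and the groups covered nearly the same range. The difference was 0.02 ± 0.15 (SE), and the other probe set, 1437489_x_at, gave -0.02 ± 0.10 (SE), so no direction is given for Sdhd. The values for Sdha, the flavoprotein, and Sdhc, the other anchor, were 0.03 and 0.06.

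Complex III, the cytochrome bc1 complex, had 4 higher genes and 1 lower gene among 5. Uqcrc2 encodes a core protein of the complex on its matrix side. At 1435757_a_at it read 1939, 1979 and 1811 in wt and 2055, 2378 and 2225 in Msi1-null arrays. All Msi1-null arrays lay above all wt arrays. The difference was 0.22 ± 0.10 (SE), or 16.1% more, with an unadjusted limma p of 0.069, an adjusted p of 0.9997 and an exact two-sided permutation p of 0.1. A further probe set, 1428631_a_at, also did not overlap, with 0.18 ± 0.10 (SE), and the difference stayed between 0.16 and 0.27 whichever array was left out.

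Uqcrc1, the partner core protein, differed in direction. It read 2754, 2779 and 2531 in wt and 2727, 2607 and 2499 in Msi1-null arrays at 1428782_a_at, with overlapping groups and a difference of -0.04 ± 0.09 (SE). Cyc1, which encodes cytochrome c1, had a difference of 0.18 ± 0.11 (SE), and its groups overlapped by 1 array. Uqcrfs1, the Rieske iron-sulphur protein, and Uqcrq stood at 0.03 and 0.04. The complex III score was -0.05, -0.02 and -0.06 in wt and 0.04, 0.05 and 0.04 in Msi1-null arrays, so the groups did not overlap. The median of the 5 differences, 0.04, was 0.10 without wt replicate 1 and 0.09 without Msi1-null replicate 2.

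Cycs encodes somatic cytochrome c, which carries electrons between complexes III and IV and, once released from mitochondria, takes part in apoptosis. Its probe set of highest mean, 1456071_a_at, read 1534, 1865 and 2317 in wt and 2266, 2223 and 2500 in Msi1-null arrays. The wt arrays were widely spread and wt replicate 3 lay above Msi1-null replicates 1 and 2, so the groups overlapped. The difference of 0.31 ± 0.16 (SE), or 23.8% more, was the largest of the 34 genes, with an unadjusted limma p of 0.089 and an exact two-sided permutation p of 0.3. It was 0.16 without wt replicate 1 and 0.46 without wt replicate 3.

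A total of 3 Cycs probe sets were above background, and all 3 were higher in Msi1-null arrays. Probe set 1422483_a_at read 1526, 1578 and 1846 in wt and 2137, 1940 and 2184 in Msi1-null arrays. All Msi1-null arrays lay above all wt arrays, and the difference was 0.34 ± 0.11 (SE), with an unadjusted limma p of 0.019, an adjusted p of 0.9997 and an exact two-sided permutation p of 0.1. Probe set 1422484_at read 756, 953 and 977 in wt and 1000, 1082 and 1174 in Msi1-null arrays, again without overlap, with a difference of 0.28 ± 0.14 (SE). These probe sets measure the same RNA samples and may share probes, so they are not independent of each other. The remaining probe set, 1445484_at, was below background in every array and gave -0.04.

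**Figure D4:**
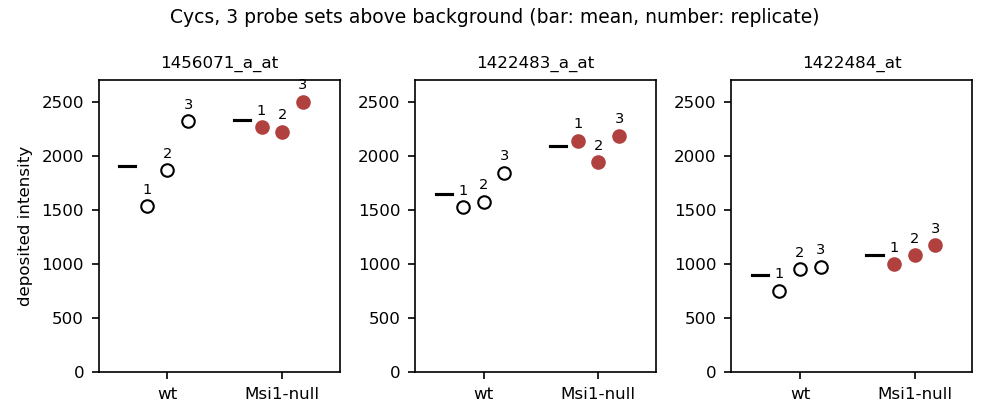
Deposited intensity (linear axis from 0) of the 3 Cycs probe sets above background in each array, with replicate numbers and a bar at the mean of 3 arrays; levels are not compared between probe sets. For 1422483_a_at and 1422484_at the Msi1-null arrays lie above all wt arrays, while for 1456071_a_at wt replicate 3, at 2317, lies among them.

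Complex IV, the cytochrome c oxidase, had 4 higher and 2 lower genes among 6 and a median of 0.02, which turned to -0.002 when the arrays were quantile normalized again. Cox8a, a small accessory subunit, read 3785, 3655 and 4113 in wt and 4834, 4154 and 4312 in Msi1-null arrays at 1416112_at. The Msi1-null arrays were all higher, with replicate 2 only 41.0 units above wt replicate 3. The difference was 0.20 ± 0.10 (SE; unadjusted limma p = 0.069, exact two-sided permutation p = 0.1), or 15.0% more. Probe set 1448222_x_at gave 0.19 ± 0.10 (SE) with overlap. Cox6c, another accessory subunit, read 5523, 5372 and 5640 in wt and 6167, 5985 and 5992 in Msi1-null arrays at 1415970_at. Both groups were narrow and 345 units apart. The difference was 0.13 ± 0.07 (SE; unadjusted limma p = 0.086, exact two-sided permutation p = 0.1), and it stayed between 0.12 and 0.15 whichever array was left out.

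Cox4i1, the regulatory subunit that binds ATP, went the other way. It read 7972, 7346 and 7486 in wt and 6505, 7281 and 7713 in Msi1-null arrays at 1448322_a_at. Msi1-null replicate 1 was low, while the other Msi1-null arrays lay near or within the wt range. The difference was -0.09 ± 0.08 (SE), and -0.02 without Msi1-null replicate 1. Cox5a, Cox5b and Cox7a2 lay between -0.02 and 0.02, with intervals between -0.19 and 0.19. The complex IV score did not overlap between the groups but the gap was small, from 0.006 in wt replicate 3 to 0.01 in Msi1-null replicate 3.

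Complex V was represented by 3 genes, all higher in Msi1-null arrays. Atp5b encodes the catalytic beta subunit of the ATP synthase. At 1416829_at it read 4436, 3976 and 4036 in wt and 4582, 4936 and 4515 in Msi1-null arrays. The groups did not overlap, wt replicate 1 coming within 78.6 units of the lowest Msi1-null array. The difference was 0.17 ± 0.09 (SE; unadjusted limma p = 0.080, exact two-sided permutation p = 0.1), or 12.8% more. Atp5a1, the alpha subunit that alternates with beta in the catalytic head, read 4879, 4002 and 4519 in wt and 4220, 5319 and 4486 in Msi1-null arrays at 1423111_at. The groups overlapped broadly, with Msi1-null replicate 2 the highest array and wt replicate 2 the lowest. The difference was 0.06 ± 0.12 (SE), and it became -0.03 without Msi1-null replicate 2. Atp5o, a subunit of the stalk that holds the head in place, stood at 0.09 ± 0.09 (SE).

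Further probe sets of these genes read the same RNA samples and may share probes, so they are no independent check of the differences. The 34 genes had 36 other probe sets, of which 24 were above background in every array. Of these 24, 18 were higher in Msi1-null arrays and 19 had the sign of the probe set that represents the gene. Over all 70 probe sets 10 were higher without overlap, against 4.08% of all probe sets on the array. These 10 are the probe sets of the 7 genes without overlap given above and further ones of Cycs and Uqcrc2, so they repeat genes. A single one was lower without overlap (1436149_at of Cox5b, above background in only some arrays), against 3.71%, and 1 had an unadjusted p under 0.05, that of Cycs given above, against 3.01%.

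The subunits outside the 34 were examined from a companion list. Of 43 other nuclear-encoded subunits of complexes I, III, IV and V 39 were measured; 33 of these (84.6%) were higher and 6 lower in Msi1-null arrays, with a median of 0.08, and 6 (15.4%) were higher and 1 lower without overlap, against 4.08% and 3.71% of all probe sets. Ndufc1, a small complex I subunit, read 1685, 1921 and 1843 in wt and 2166, 2384 and 2177 in Msi1-null arrays, a difference of 0.30 ± 0.10 (SE) with an unadjusted limma p of 0.019. Atp5g2, a gene for the membrane ring of ATP synthase, read 2859, 2818 and 2836 in wt and 3226, 3704 and 3113 in Msi1-null arrays, a difference of 0.23 ± 0.10 (SE) with an unadjusted limma p of 0.045. These 2 were the only ones of the 39 with an unadjusted limma p under 0.05, against 3.01% of all probe sets. They did not pass after adjustment over all probe sets. Ndufb2 (0.23), Uqcr10 (0.15), Uqcr11 (0.16), Cox6a1 (0.10) and Cox6b1 (0.08) were higher, and Atp5l, a membrane subunit of ATP synthase, was lower without overlap (-0.14 ± 0.08, SE). The score of the 19 complex I genes among them was again highest in Msi1-null replicate 2, at 0.11, and between -0.06 and 0.01 in the other arrays.

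Of the 13 subunits encoded by mitochondrial DNA only mt-Nd5 was measured by a probe set of its own. It read 3726, 2261 and 2851 in wt and 5058, 2719 and 2496 in Msi1-null arrays, with replicate 1 high in both groups. The difference was 0.17 ± 0.29 (SE). Its highest array, Msi1-null replicate 1, was the array with the lowest complex I score of the nuclear genes.

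Genes that build and supply the system were taken from further lists, whose counts stand beside the 4.08% of all probe sets that were higher without overlap. Assembly factors of the complexes were higher in 29 of 41 genes, with a median of 0.06 and 5 higher without overlap, among them Ndufaf1 (0.20 ± 0.09, SE), for complex I, and Atpaf2 (0.17 ± 0.09, SE), for ATP synthase. Enzymes of the tricarboxylic acid cycle were higher in 12 of 17, with a median of 0.05. The transcript of citrate synthase, Cs, read 1929, 1869 and 1861 in wt and 2119, 2137 and 2099 in Msi1-null arrays. Its groups were narrow and did not overlap, and the difference was 0.17 ± 0.09 (SE) with an exact two-sided permutation p of 0.1, while Fh1, the fumarate hydratase, had 0.14 ± 0.11 (SE), also without overlap. Mitochondrial ribosomal protein genes were higher in 22 of 30, with a median of 0.06, and Mrpl18 (0.18 ± 0.09, SE) and Mrpl16 (0.15 ± 0.09, SE) were among the 3 without overlap. None of these genes had an unadjusted limma p under 0.05.

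Regulators of mitochondrial genes were higher in 12 of 21 genes, with a median of 0.01, and in 0 of 21 without overlap. Hcfc1, a co-regulator that binds several of these factors, had -0.20 ± 0.13 (SE). Ppargc1a, the coactivator PGC-1alpha, was below background in every array, so no difference is given. The factors whose motifs were searched above overlapped between the groups: Nrf1 differed by 0.01 ± 0.11, Gabpa by -0.03 ± 0.11, Yy1 by -0.13 ± 0.14 and Esrra by 0.12 ± 0.11 (SE). Tissue-restricted isoforms of complex IV subunits were higher in 6 of 9 genes with no separation of the groups, and 4 of the 9 were below background in every array.

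**Figure D5:**
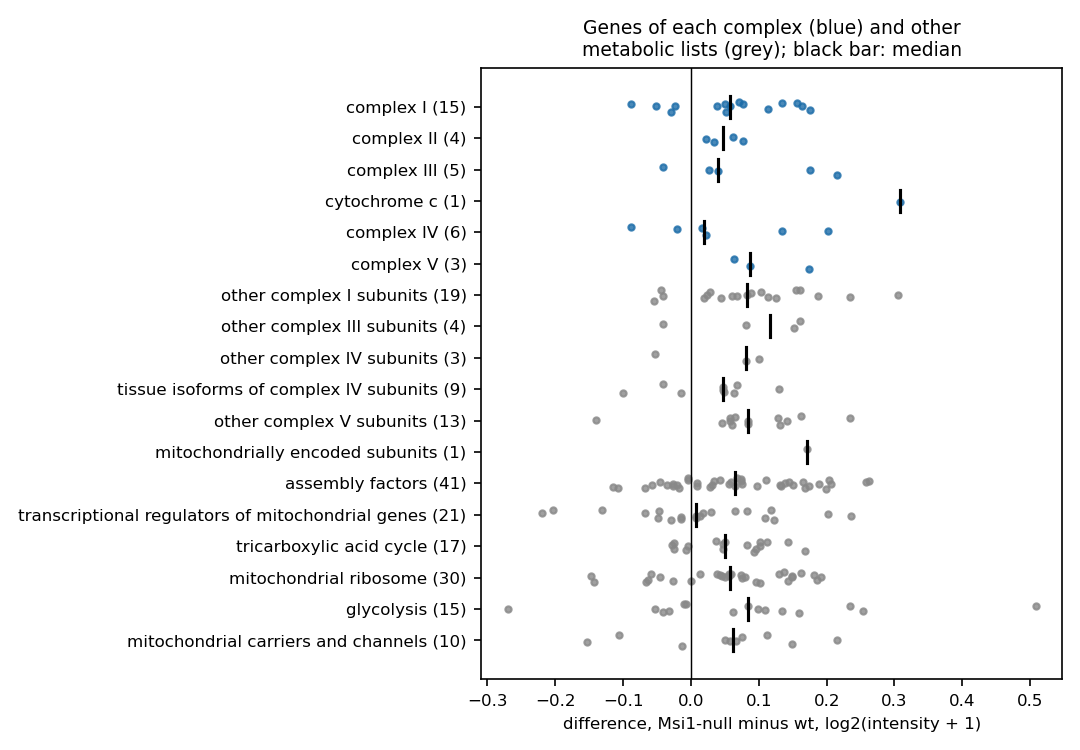
Log2 difference of each gene, Msi1-null minus wt, for the 34 genes by complex (blue) and for the companion lists (grey), with the number of genes measured in brackets and a black bar at the median. The medians of all lists shown lie between 0 and 0.12 except cytochrome c and mt-Nd5, each a single gene, at 0.31 and 0.17.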

How the data were processed

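Gene expression was measured in 6 tumour samples, 3 per Msi1 genotype, on Affymetrix arrays from biotin-labelled cRNA, per the labels' protocols; a tumour allele shared by all samples is not reported here. The authors deposited 1 linear intensity per probe set and array, made with GCRMA per the submitters' processing notes; no source used here says whether a rescaling followed. GCRMA corrects background by probe sequence, and its effect on the values of these genes was not tested. The 1 added before taking log2 mattered little. Without it 1354 probe sets had an unadjusted limma p under 0.05, and with it 1355.

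The table held 45101 probe sets, of which 64 controls were left out. A platform annotation gave 34945 probe sets 1 symbol, 932 several and 9160 none, and only those with 1 symbol were named. Entrez identifiers linked 34741 of them to current symbols in RefSeq of GRCm38.p6. Promoters are RefSeq's.

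In R 4.3.3, limma 3.58.1 fitted genotype over 45037 probe sets (lmFit, then eBayes with a trend), with Benjamini-Hochberg adjustment, and the fit was tested on simulated data. SE is limma's moderated standard error and SD is over arrays. Exact permutation tests covered all 20 assignments of the arrays. Array values are printed for the genes of largest and smallest difference in each complex and for those whose groups do not overlap, and up to 2 genes of smallest p are named from each companion list; Nrf1, Gabpa, Yy1, Esrra, mt-Nd5 and Cyc1 were named outside this rule. The genes, lists and rules were chosen with earlier results of these data known. Of 355 entries of the companion and marker lists 317 were measured.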

Additional observations from a re-analysis of the deposited data

How the results depend on the processing

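A total of 20 alternative settings were tried, each changing 1 choice: the pseudocount, the filter on dim probe sets, how a gene's probe set is taken, the prior variance, the normalization, weights for the arrays, a block for the replicate number, and the arrays included. Averaging only probe sets above background, and the normalizations of the non-overlap count, were chosen after seeing the data. The number of higher genes stayed between 21 and 28 of 34 and the median difference between 0.026 and 0.098. Genes with an unadjusted limma p under 0.05 numbered 0, but 2 with array weights (Uqcrc2 and Atp5b), 4 without the trend in eBayes (Uqcrc2, Cox6c, Cox8a and Atp5b) and 1 with probe sets above background averaged (Cycs); leaving out an array gave 0 to 1. Replicate numbers follow the titles; the descriptions use other numbers but match the same wt and Msi1-null arrays. Whether these numbers pair the samples cannot be told from the arrays. Deviations of same-numbered arrays from their group means correlated at 0.17, -0.09 and 0.28 for replicates 1, 2 and 3. The values for replicates 1 and 3 were the highest of all pairs of arrays, while replicate 2 arrays did not correlate best with each other. With the replicate number as a block 1 gene had an unadjusted limma p under 0.05 (Cycs, 0.049) and 0 probe sets passed after adjustment. Leaving out an array gave 0 to 1 probe sets past the adjusted threshold, the 1 being Ighm, an immunoglobulin gene outside the lists named here after its value was seen, without Msi1-null replicate 1.

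Of the values for the 15 genes described singly, 279 kept their direction and their side of an unadjusted p of 0.05, 11 passed it and 10 changed sign. With the probe set of smallest standard error Cycs was at -0.040, Atp5a1 at -0.034 and Sdhd at -0.016; those of Cycs and Atp5a1 lie below background. With array weights, which gave Msi1-null replicate 1 a weight of 0.34, Sdhd was at -0.0078. Leaving out an array moved Sdhd between -0.091 and 0.15, Sdhb between -0.0077 and 0.12 and Atp5a1 between -0.033 and 0.13. The cause of these shifts was not tested. Without Msi1-null replicate 2 the median of complex II was about 0. With 3 arrays a group the median standard error over the 34 genes was 0.11, and all 34 intervals of the log2 difference include 0.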

Other observations

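Genes of glycolysis and lactate handling, the other main route to ATP, spread more widely, from -0.27 to 0.51. Of 15 measured, 9 were higher and 6 lower in Msi1-null arrays, with a median log2 difference of 0.08, and 0 were separated between the groups. Slc16a1, a lactate and pyruvate transporter (MCT1), read 851, 979 and 1256 in wt and 1237, 1414 and 1721 in Msi1-null arrays. The difference was 0.51 ± 0.18 (SE), and wt replicate 3 lay above Msi1-null replicate 1. Ldhb, the lactate dehydrogenase subunit of oxidative tissues, had -0.27 ± 0.18 (SE). The list's score was lowest in wt replicate 1, at -0.30, and highest in Msi1-null replicate 3 and wt replicate 3, at 0.20 and 0.19.

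Of 10 mitochondrial carriers and channels measured, 7 were higher in Msi1-null arrays, with a median of 0.06. Slc25a11, the carrier of 2-oxoglutarate and malate, read 913, 923 and 935 in wt and 1138, 1118 and 970 in Msi1-null arrays, without overlap, and differed by 0.22 ± 0.11 (SE) with an exact two-sided permutation p of 0.1. Ucp1, the uncoupling protein of brown fat, was below background in every array.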
